A study of Homo sapiens with 40 samples.

Results

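The integrin, laminin and collagen genes of RKO cells were described across all 10 groups of a knockdown and knockout experiment. Members were the protein-coding genes with symbols of the forms ITGA, ITGB, LAMA, LAMB, LAMC or COL followed by chain numbers, and with a mean of at least 10 counts over the 40 libraries. This rule kept 25 genes of the 19962 rows of the count table: 10 of 18 integrin alpha chains, 2 of 8 integrin beta chains, 7 of 12 laminin chains and 6 of 44 collagen chains. The lowest member by this measure, COL11A2, had a mean of 15.3 counts, and the nearest genes left out were COL5A2 (8.1), COL5A1 (7.28) and LAMC3 (6.35). Of the 57 matching genes left out, 45 had a mean under 1 count and 9 had no count in any library. All 25 members passed the filter on low counts and were tested.

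RKO is an established human colorectal carcinoma line, here carrying GFP and a Cas9 nuclease that doxycycline (Dox) switches on. Lentivirus added a pair of guide RNAs and the blue marker eBFP2, and eBFP2-positive cells were sorted, with no clone named in the labels. Per the labels, the guides were against IGF2BP2 (sgIGF2BP2), IGF2BP3 (sgIGF2BP3) or the AAVS1 locus, called non-coding there (sgAAVS1). In each of these 3 lines, 4 libraries came from cells given DMSO and 4 from cells given Dox, at 250 ng/mL for 72 hours. The sgIGF2BP2 line, without Dox, was also transfected with a non-targeting siRNA (siControl) or a siRNA pool against IGF2BP2 (siIGF2BP2), and the sgIGF2BP3 line with siControl or a pool against IGF2BP3 (siIGF2BP3). The siRNAs were used at 75 nM for 48 hours, with 4 libraries in each group. All cells in all groups received s4U, a nucleoside that marks new RNA, at 250 µM for 2 hours. The counts used here cover new and old poly(A) RNA together. The labels describe 1 well per condition in quadruplicate and name no separate cultures, so p-values measure the spread between these libraries.

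Library totals ran from 10018181 to 24822807 counts (median 13468792). The targeted mRNAs were lower in every intended group: mean IGF2BP2 went from 85.3 to 33.9 CPM (counts scaled to a common library total) with Dox and from 108 to 30.2 with siRNA, and IGF2BP3 from 180 to 56.2 and from 170 to 24.7. IGF2BP3 was also lower with Dox in sgIGF2BP2 cells (179 to 151 CPM, log2 fold change -0.25 ± 0.040, adjusted p = 2.93e-06). In sgAAVS1 cells Dox lowered SPOP, a gene the labels do not name as a target (log2 fold change -1.68 ± 0.077, adjusted p = 4.86e-28). Of 10 colon epithelial markers, KRT18 (185 CPM), KRT8 (52.9), CDX2 (19.5) and EPCAM (13.9) were present, while CDH1, KRT19 and VIL1 were below 0.02 CPM and KRT20 had no count. The mesenchymal list held VIM (33.4 CPM) and ZEB1 (208), with the other 8 markers at or near 0, and the endothelial and leukocyte lists summed to at most 1.00 CPM in any library.

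Integrins are cell surface receptors made of an alpha and a beta chain, and they join matrix outside the cell to the actin skeleton inside it. Laminins are cross-shaped trimers of an alpha, a beta and a gamma chain that build the basement membrane under epithelia. Collagens are triple helices of identical or different alpha chains. Integrin α5β1 binds fibronectin, while α3β1, α6β1 and α7β1 bind laminins. Integrin pairs and laminin trimers need all of their chains, so partner chains are given beside the members.

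Promoter sequence is shown for 4 of the members, an integrin pair that rose with siControl, a laminin chain that rose with it and the laminin chain that fell. RefSeq (GRCh38.p14) gave windows for 18 of the 25 members, and LAMA1, ITGA3, COL9A3, ITGA7, ITGAX and COL6A1 were among those without one. The 250 bases before the most upstream listed start are printed 5′ to 3′ on the gene's own strand. They lie at chr12:54419267-54419516 (minus strand) for ITGA5, chr10:32958231-32958480 (minus) for ITGB1, chr1:183023170-183023419 (plus) for LAMC1 and chr1:209652426-209652675 (minus) for LAMB3. Capitals mark the letters of the GC box (GGGCGG) and of the TEAD motif (GGAATG) on either strand.
ITGA5: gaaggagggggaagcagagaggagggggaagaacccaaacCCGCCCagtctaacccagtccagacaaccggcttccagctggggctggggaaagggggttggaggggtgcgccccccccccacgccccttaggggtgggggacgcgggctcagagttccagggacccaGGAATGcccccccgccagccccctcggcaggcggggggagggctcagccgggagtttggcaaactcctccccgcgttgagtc
ITGB1: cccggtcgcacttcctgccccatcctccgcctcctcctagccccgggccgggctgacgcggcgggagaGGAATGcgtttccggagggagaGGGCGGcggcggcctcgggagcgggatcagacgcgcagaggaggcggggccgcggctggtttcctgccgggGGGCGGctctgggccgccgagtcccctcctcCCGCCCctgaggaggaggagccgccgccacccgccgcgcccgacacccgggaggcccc
LAMC1: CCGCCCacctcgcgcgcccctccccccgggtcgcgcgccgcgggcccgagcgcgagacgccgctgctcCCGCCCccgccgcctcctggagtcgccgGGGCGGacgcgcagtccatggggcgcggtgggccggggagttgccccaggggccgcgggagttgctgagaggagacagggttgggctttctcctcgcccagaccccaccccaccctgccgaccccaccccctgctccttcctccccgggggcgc
LAMB3: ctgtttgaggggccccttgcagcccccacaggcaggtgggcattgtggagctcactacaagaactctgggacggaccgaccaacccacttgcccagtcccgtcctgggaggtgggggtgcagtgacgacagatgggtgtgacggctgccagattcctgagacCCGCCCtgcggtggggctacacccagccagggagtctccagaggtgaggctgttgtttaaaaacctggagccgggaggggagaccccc
The GC box letters occurred in 12 of the 18 member windows, taken at the most upstream start of each gene. They occurred in 42.6% of all 35116 windows of that length, which take in every listed start. The TEAD letters occurred in ITGA5, ITGB1 and ITGA10, which is 3 of 18, against 11.9% of all windows. In ITGA5 the TEAD letters ended 77 bases before the start, and in ITGB1 they ended 177 bases before it. The AP-1 letters (TGANTCA) occurred in 0 of the 18 and in 6.57% of all windows. The motifs do not overlap each other in the printed stretches, and a match is a run of letters, with no measurement of binding here.

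Levels were compared per length, as CPM divided by the kilobases of exon in GENCODE release 29. LAMB3, the beta chain of laminin-332, led with 268 CPM per kilobase, followed by ITGB1, the common beta chain of the integrin family, with 209. These 2 genes stood apart: the library values of ITGB1 (1065 to 1510 CPM) and of LAMB3 (959 to 1451 CPM) correspond to levels per kilobase above every value of ITGA5, the next gene, at 33.3. LAMB3 was above ITGB1 per kilobase in 31 of 40 libraries, and the libraries with the opposite order were all from groups given a siRNA. Mean levels per kilobase of LAMB3 and ITGB1 were 240 and 241 with siControl in sgIGF2BP2 cells, and 286 and 190 with DMSO. The order also turned round when the longest transcript was used as the length.

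Among the integrin alpha chains, ITGA5 (fibronectin receptor) was followed by ITGA3 (10.8 CPM per kilobase), ITGAV (5.67), ITGA7 (5.48), ITGA6 (3.76), ITGAX (3.26), ITGAE (3.02), ITGA2 (2.84), ITGA10 (0.313) and ITGA1 (0.132). ITGB5, which pairs with αV, stood at 8.49. After LAMB3 came the laminin chains LAMB1 (22.9), LAMB2 (19.5) and LAMC1 (19.4), with the alpha chains LAMA5 (10.1) and LAMA1 (7.41) below them. The collagens began with COL9A3 (24.0) and COL27A1 (16.3), passed through COL6A1 (7.87) and COL18A1 (1.81), and ended with COL7A1 (0.165) and COL11A2 (0.162). Down the whole order of 25, the library ranges of neighbours separated at only 3 steps, among them ITGB1 over ITGA5 and COL27A1 over ITGA3. All other neighbours overlapped, and the use of the longest transcript moved 14 ranks, by at most 2.

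**Figure D1:**
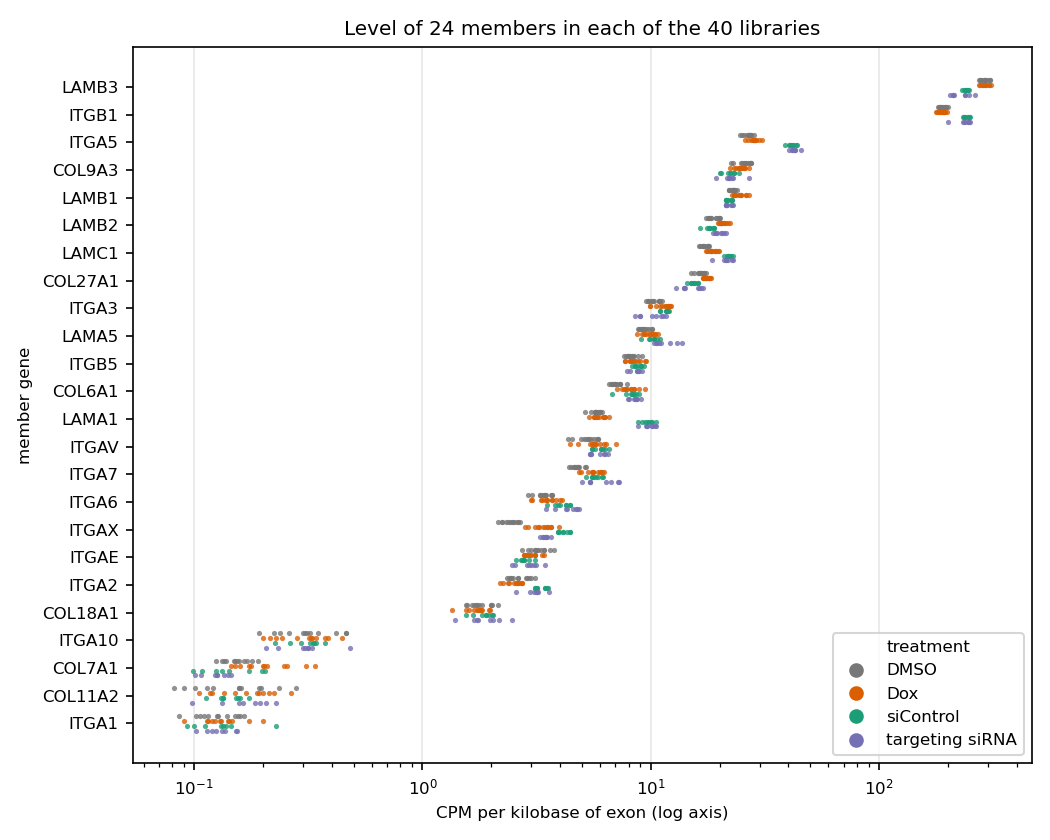
Level of members in CPM per kilobase of exon (log axis); each point is 1 of 40 libraries, coloured by treatment. LAMB3 and ITGB1 (268 and 209 on average) stand above ITGA5 (33.3), and ITGA10, COL7A1, COL11A2 and ITGA1 lie under 1.

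The partner chains divided the members into complete and incomplete sets. For laminin-111 and laminin-511 or laminin-521, every chain was a member: LAMA1, LAMA5, LAMB1, LAMB2 and LAMC1 had means of 1654, 2027, 2622, 1877 and 2295 counts per library. For laminin-332, the beta chain LAMB3 had 705257 counts over the 40 libraries and its alpha partner LAMA3 had 2. Similar gaps stood beside the leukocyte integrin alpha chains. ITGAX (αX, known as CD11c) had 12883 counts and its partner ITGB2 had 73; ITGAE (αE, known as CD103) had 11296 and its partner ITGB7 had 57. The leukocyte marker PTPRC had 1 count in all libraries together.

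Of the other beta chains, ITGB4, the partner of α6 in hemidesmosomes, had 13 counts in all, ITGB3 22, ITGB8 5 and ITGB6 none. ITGB1 and ITGB5 were thus the only beta chains with a mean of at least 10 counts. Chains of collagens I and IV were near the floor: COL1A1 had 175 counts, COL1A2 none, COL4A1 6 and COL4A2 12. COL6A1 had 23583 counts, but COL6A2 and COL6A3, the other chains of the same collagen VI helix, had 16 and 21. COL9A3 had 65425 counts, against 45 for COL9A2 and none for COL9A1. COL11A2 had 612 and COL11A1 3. A gene with no count in these libraries is limited to 0.00533 CPM over the pooled total, for counting error only.

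**Figure D2:**
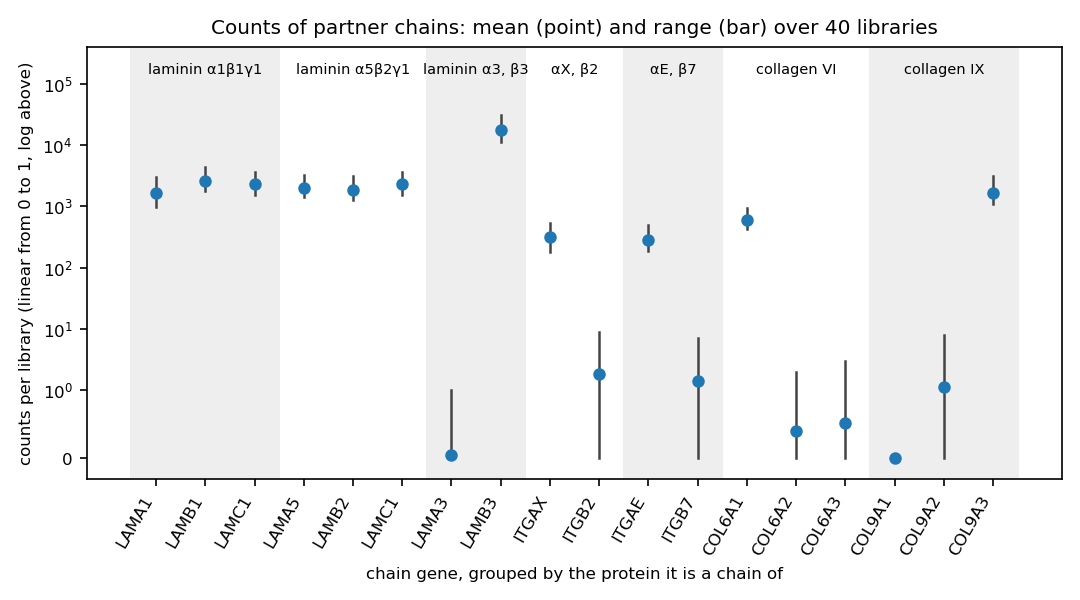
Counts per library of chains grouped by the protein they form; points are means and bars the lowest and highest of 40 libraries, on an axis linear from 0 to 1 and logarithmic above. In laminin-111 and laminin-521 all chains lie between 1654 and 2622 on average, whereas LAMB3 (17631) stands beside LAMA3 (0.05) and COL9A3 (1636) beside COL9A1 (0).

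Some counts are less certain than others. Exons of COL18A1, COL9A3, ITGA7, ITGAE, LAMA5 and LAMB1 overlap exons of genes on the opposite strand (SLC19A1, TCFL5, METTL7B with BLOC1S1, HASPIN, ADRM1 and DLD in that order), and ITGA1 shares exon bases with PELO on its own strand. Whether the counting used strand is not given in the sources used here, so reads of these pairs may be mixed.

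The contrast in which most members changed was siControl against DMSO. Several but not all integrin chains and the laminin-111 chains LAMA1 and LAMC1 rose, and LAMB3 and COL9A3 fell, in the sgIGF2BP2 and the sgIGF2BP3 line alike. A gene is called here when its p-value from edgeR, adjusted over all 11428 genes tested, is under 0.05. In sgIGF2BP2 cells 16 of 25 members (64.0%) were called, 12 higher and 4 lower, against a background of 18.4% of all genes called, 10.2% higher and 8.16% lower. In sgIGF2BP3 cells 14 of 25 (56.0%) were called, 12 higher and 2 lower, against 19.4% of all genes, 10.9% higher and 8.54% lower. The median log2 fold change of the members was 0.13 in both lines, and that of all genes was -0.0021 and -0.0043. The lines share no library in these contrasts, and 10 members were called higher in both, among them ITGA2, ITGA3, ITGA5, ITGA6, ITGA7, ITGAX, ITGB1, LAMA1 and LAMC1. The share of all genes called higher in both lines was not counted. The siControl and DMSO cells differ in transfection, reagent, solvent and duration, which cannot be told apart. In bulk RNA, a change in the share of cells that express a gene and a change in RNA per cell cannot be told apart either.

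LAMA1, the alpha chain of laminin-111 (chr18:6941744-7117814, GRCh38), had 81.5, 95.1, 86.5 and 90.8 CPM in the 4 DMSO libraries of sgIGF2BP2 cells and 156, 153, 139 and 145 with siControl. In sgIGF2BP3 cells it had 94.4, 90.2, 91.0 and 91.4 with DMSO and 167, 159, 160 and 149 with siControl. All 8 siControl libraries stood above all 8 DMSO libraries. The log2 fold change was 0.75 ± 0.042 (SE; adjusted p = 5.40e-23) in sgIGF2BP2 cells, which is 1.68-fold, and 0.79 ± 0.042 (adjusted p = 1.92e-24), or 1.73-fold, in sgIGF2BP3 cells. LAMC1, the gamma chain of the same trimer, went from 138, 137, 144 and 143 CPM to 185, 181, 176 and 184 in sgIGF2BP2 cells, and from 151, 143, 144 and 149 to 187, 183, 189 and 193 in sgIGF2BP3 cells. The groups did not overlap in either line, and the log2 fold changes were 0.37 ± 0.037 (adjusted p = 1.60e-12) and 0.36 ± 0.037 (adjusted p = 6.09e-12). The third chain, LAMB1, was not called in either line (log2 fold changes of -0.06 and -0.07), so the 3 chains of laminin-111 moved by unequal amounts.

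ITGA5 and ITGB1, the chains of the fibronectin receptor, rose in both lines. ITGA5 had 199, 214, 202 and 209 CPM with DMSO and 306, 309, 292 and 312 with siControl in sgIGF2BP2 cells, a log2 fold change of 0.57 ± 0.035 (adjusted p = 1.21e-21). In sgIGF2BP3 cells it had 207, 203, 191 and 186 CPM with DMSO and 319, 318, 329 and 331 with siControl, a log2 fold change of 0.72 ± 0.035 (adjusted p = 1.33e-26). Every siControl library was higher than every DMSO library. ITGB1 went from 1202, 1116, 1142 and 1106 CPM to 1490, 1425, 1465 and 1414 in sgIGF2BP2 cells, and from 1176, 1130, 1173 and 1164 to 1507, 1421, 1395 and 1484 in sgIGF2BP3 cells. Its log2 fold changes were 0.34 ± 0.039 (adjusted p = 1.40e-10) and 0.32 ± 0.039 (adjusted p = 9.82e-10), again without overlap. The sequences before the RefSeq starts of both genes, printed above, hold the TEAD letters. ITGA10, at 1.98 CPM, holds them too and was not called. LAMC1 and ITGA2 were called higher in both lines, and their windows lack the TEAD letters. The part of these letters in the rises was not tested.

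ITGAX had a mean of 16.7 ± 1.29 CPM (SD, n = 4) with DMSO and 29.6 ± 1.5 with siControl in sgIGF2BP2 cells, 1.77-fold. In sgIGF2BP3 cells it had 16.9 ± 1.39 and 29 ± 1.70, 1.71-fold. The laminin receptors ITGA7 (log2 fold changes 0.34 and 0.26), ITGA6 (0.26 and 0.22) and ITGA3 (0.20 and 0.17) and the collagen receptor chain ITGA2 (0.27 and 0.22) rose by less. In sgIGF2BP3 cells the call of ITGA2 was lost without DMSO replicate 4 (adjusted p = 0.0845), and that of ITGA6 without DMSO replicate 1 or 3 or siControl replicate 2 or 3 (adjusted p up to 0.181). The αV chain ITGAV (0.26) and its partner ITGB5 (0.20) were called only in the sgIGF2BP2 line. COL6A1 (0.33) and LAMA5 (0.17) were called only in the sgIGF2BP3 line, with LAMA5 lost without siControl replicate 2 (adjusted p = 0.0610). Whether the lines differ was not tested.

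LAMB3, which with ITGB1 stood above all other members in level, fell. In sgIGF2BP2 cells it had 1304, 1400, 1290 and 1365 CPM with DMSO and 1108, 1127, 1111 and 1162 with siControl. In sgIGF2BP3 cells it had 1366, 1347, 1355 and 1291 with DMSO and 1123, 1132, 1154 and 1081 with siControl. No siControl library reached the DMSO range, and the log2 fold changes were -0.25 ± 0.034 (adjusted p = 3.49e-08) and -0.26 ± 0.034 (adjusted p = 1.52e-08). COL9A3, a chain of the cartilage collagen IX, fell by 0.20 on the log2 scale in each line, from a mean of 125 to 110 CPM and from 121 to 105. In sgIGF2BP2 cells its groups overlapped, and the call was lost without siControl replicate 1 (adjusted p = 0.0842). ITGAE (-0.22, adjusted p = 0.0450) and COL27A1 (-0.12, adjusted p = 0.0133) were called lower in sgIGF2BP2 cells. The ITGAE call was lost without DMSO replicate 1 or 2 or any siControl replicate (adjusted p up to 0.222), and that of COL27A1 without DMSO replicate 2, 3 or 4 or siControl replicate 1 (adjusted p up to 0.103). The summed epithelial markers moved in the same contrast, from 279 to 293 CPM with DMSO to 245 to 249 with siControl in sgIGF2BP2 cells, and from 275 to 287 to 248 to 265 in sgIGF2BP3 cells. The mesenchymal sum went from 239 to 259 to 228 to 239, and from 242 to 256 to 222 to 236. The epithelial sum is mostly KRT18 and KRT8, and the mesenchymal sum mostly ZEB1 and VIM. The part of these sums in the changes of the members was not tested.

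**Figure D3:**
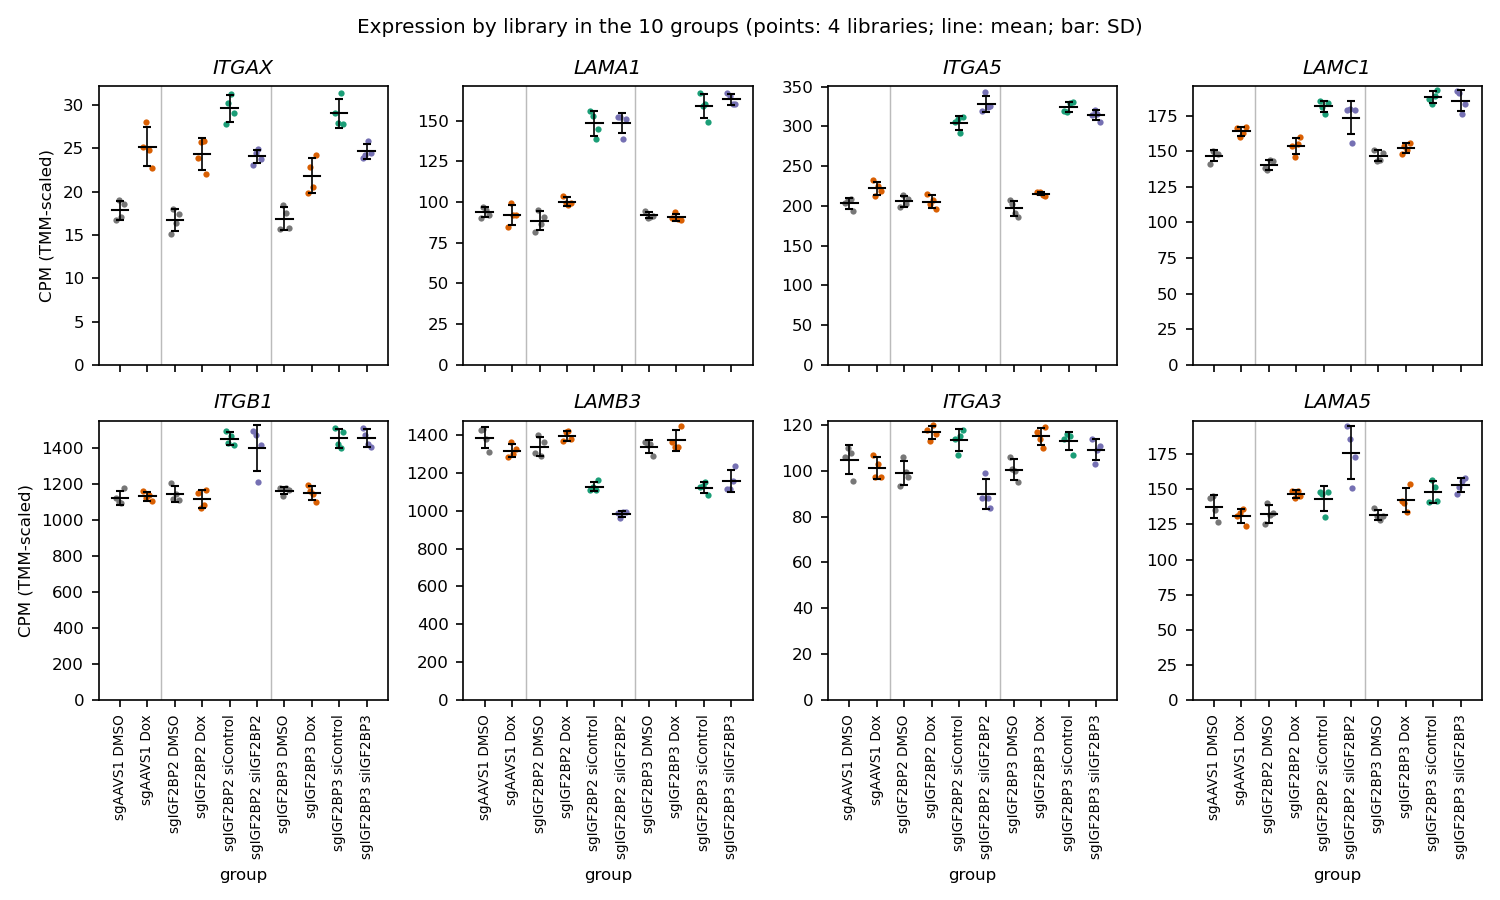
CPM of 8 members in every library of the 10 groups; points are libraries, lines means and bars SD (n = 4), with axes from 0. LAMA1, ITGA5, LAMC1 and ITGB1 are higher in all siControl and targeting siRNA groups than in the DMSO groups, LAMB3 is lower there, and ITGA3 and LAMA5 depart from siControl with siIGF2BP2.

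With Dox, every called member rose and none fell, in all 3 lines. In sgAAVS1 cells 7 of 25 members were called (28.0%), against 15.9% of all genes, 7.25% higher and 8.68% lower. In sgIGF2BP2 cells 9 were called (36.0%), against 20.4%, 10.0% higher and 10.4% lower. In sgIGF2BP3 cells 3 were called (12.0%), against 2.64%, 1.64% higher and 1.01% lower. The members' median log2 fold changes were 0.11, 0.082 and 0.055, and those of all genes 0.0044, 0.0077 and 0.0027. Most of the changes were small, and 15, 16 and 16 of the 25 members lay above 0. The Dox effects share their DMSO libraries with the siControl contrasts above.

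ITGAX (chr16:31355134-31382997) was the member called in all 3 lines, and the share of all genes called in all 3 was not counted. In sgAAVS1 cells it had 16.7, 19.0, 17.1 and 18.6 CPM with DMSO and 25.2, 28.1, 24.8 and 22.7 with Dox. In sgIGF2BP2 cells it had 15.1, 18.0, 16.4 and 17.4, then 23.9, 25.8, 25.9 and 22. In sgIGF2BP3 cells it had 15.7, 18.5, 17.6 and 15.8, then 19.8, 22.8, 20.6 and 24.3. The Dox libraries were above the DMSO libraries in each line. The log2 fold changes were 0.49 ± 0.073 (adjusted p = 5.46e-07), 0.55 ± 0.073 (adjusted p = 2.26e-08) and 0.38 ± 0.075 (adjusted p = 8.34e-04). The effects of the guide lines on this rise were not told apart from 0: the difference from sgAAVS1 was 0.055 (95% interval -0.14 to 0.25) for sgIGF2BP2 and -0.12 (-0.31 to 0.08) for sgIGF2BP3.

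In sgAAVS1 cells the integrin αV chain ITGAV rose from 43.7, 35.6, 42.6 and 44.0 CPM to 51.2, 57.6, 49.2 and 52.1, a log2 fold change of 0.34 ± 0.067 (adjusted p = 1.38e-04). LAMB1, the beta chain of laminin-111, rose from 179, 183, 187 and 189 CPM to 213, 212, 219 and 203, a log2 fold change of 0.20 ± 0.033 (adjusted p = 5.88e-06). Neither pair of groups overlapped. ITGA7, a laminin receptor chain best known from muscle, rose by 0.26 ± 0.060 (adjusted p = 0.00102) in this line and by 0.32 ± 0.060 (adjusted p = 3.32e-05) in sgIGF2BP2 cells. LAMC1 (0.16), ITGA5 (0.13) and COL27A1 (0.12) completed the calls in sgAAVS1 cells, and 2 of these rested on single libraries. The ITGA5 call was lost without DMSO replicate 4 or Dox replicate 1 (adjusted p up to 0.0559), and that of COL27A1 without DMSO replicate 1 or Dox replicate 2 or 3 (adjusted p up to 0.0623).

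In sgIGF2BP2 cells COL6A1, a collagen VI chain, rose from 36.2, 39.2, 39.0 and 36.5 CPM to 47.4, 45.1, 50.2 and 43.8, a log2 fold change of 0.30 ± 0.054 (adjusted p = 2.18e-05). The laminin chains LAMB2 (0.21), LAMA1 (0.18), LAMA5 (0.15) and LAMC1 (0.13) rose as well, by less than the 0.32 of ITGA7. COL7A1, the anchoring fibril collagen, rose by 0.70 ± 0.21 (adjusted p = 0.00943) from 1.69 to 2.80 CPM; the naming rule passed over it for its low level, and it is given here because its fold is the greatest of the 9. That call was lost without Dox replicate 4 (adjusted p = 0.0597), and that of LAMA5 without replicate 1 or 3 of either group (adjusted p up to 0.0884). In sgIGF2BP3 cells ITGA3 (0.19 ± 0.045, adjusted p = 0.00728) and ITGA5 (0.13 ± 0.035, adjusted p = 0.0302) were called beside ITGAX. Without DMSO replicate 4 or Dox replicate 4, ITGAX was the 1 member still called there (ITGA3 adjusted p up to 0.0650), and the ITGA5 call was also lost without DMSO replicate 3 or any other Dox replicate (adjusted p up to 0.172). ITGB1 was not called with Dox, with log2 fold changes of 0.01, -0.034 and -0.016 and 95% intervals within -0.11 to 0.086.

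The Dox effect in each IGF2BP line was set against that in sgAAVS1 cells, which differ in the guide target. These 2 differences share the sgAAVS1 libraries, in which SPOP fell with Dox, and the part of that fall in the members' differences was not tested. In the sgIGF2BP2 difference IGF2BP3 was lower too (-0.29 ± 0.057, adjusted p = 3.72e-04). For sgIGF2BP2, 3 members were called (12.0%, against 6.97% of all genes): ITGA3 (0.28 ± 0.064, adjusted p = 0.00285), LAMA5 (0.22 ± 0.070, adjusted p = 0.0387) and LAMA1 (0.21 ± 0.063, adjusted p = 0.0261), all more positive in sgIGF2BP2 cells. ITGA3 alone was called when 1 of these libraries was left out: sgAAVS1 DMSO replicate 2, sgAAVS1 Dox replicate 1, sgIGF2BP2 DMSO replicate 1 or 3, or sgIGF2BP2 Dox replicate 1. The count was 6 without sgAAVS1 DMSO replicate 4 and 5 without sgIGF2BP2 DMSO replicate 2. For sgIGF2BP3, 3 members were called (12.0%, against 7.78%): ITGA3 (0.24 ± 0.065, adjusted p = 0.0124), ITGAV (-0.43 ± 0.095, adjusted p = 0.00245) and LAMB1 (-0.17 ± 0.046, adjusted p = 0.0117). This count was 5 without sgAAVS1 DMSO replicate 4. For ITGAV and LAMB1 the movement was in sgAAVS1 cells, and their own Dox effects in sgIGF2BP3 cells were -0.086 (95% interval -0.22 to 0.047) and 0.024 (-0.041 to 0.089). Between sgIGF2BP3 and sgIGF2BP2, edgeR called 0 members (against 2.91% of all genes), with 3 at an unadjusted p under 0.05, and DESeq2 called 0. Without sgIGF2BP2 DMSO replicate 2, edgeR called 1.

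ITGA3, the alpha chain of the laminin receptor α3β1 (chr17:50055968-50090481), lies between SPOP and the end of 17q. In sgAAVS1 cells given Dox, SPOP went from 36.7 to 11.4 CPM and the 250 tested genes of this stretch had a median log2 fold change of -0.17, with 88.4% of them below 0. The same genes had medians of 0.017 and 0.012 with Dox in sgIGF2BP2 and sgIGF2BP3 cells, and their differences from sgAAVS1 had medians of 0.20 and 0.21. The differences of ITGA3, 0.28 and 0.24, are therefore read beside those of its neighbours, whose part in them was not tested. Within the IGF2BP lines no sgAAVS1 library enters. ITGA3 had 93.2, 106, 99.7 and 97.3 CPM with DMSO and 118, 113, 120 and 116 with Dox in sgIGF2BP2 cells (0.23 ± 0.045, adjusted p = 6.02e-05), and 106, 101, 100 and 94.9, then 117, 114, 110 and 119 in sgIGF2BP3 cells. In both lines the Dox libraries were above the DMSO libraries. No member lies between the end of 7p and IGF2BP3.

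**Figure D4:**
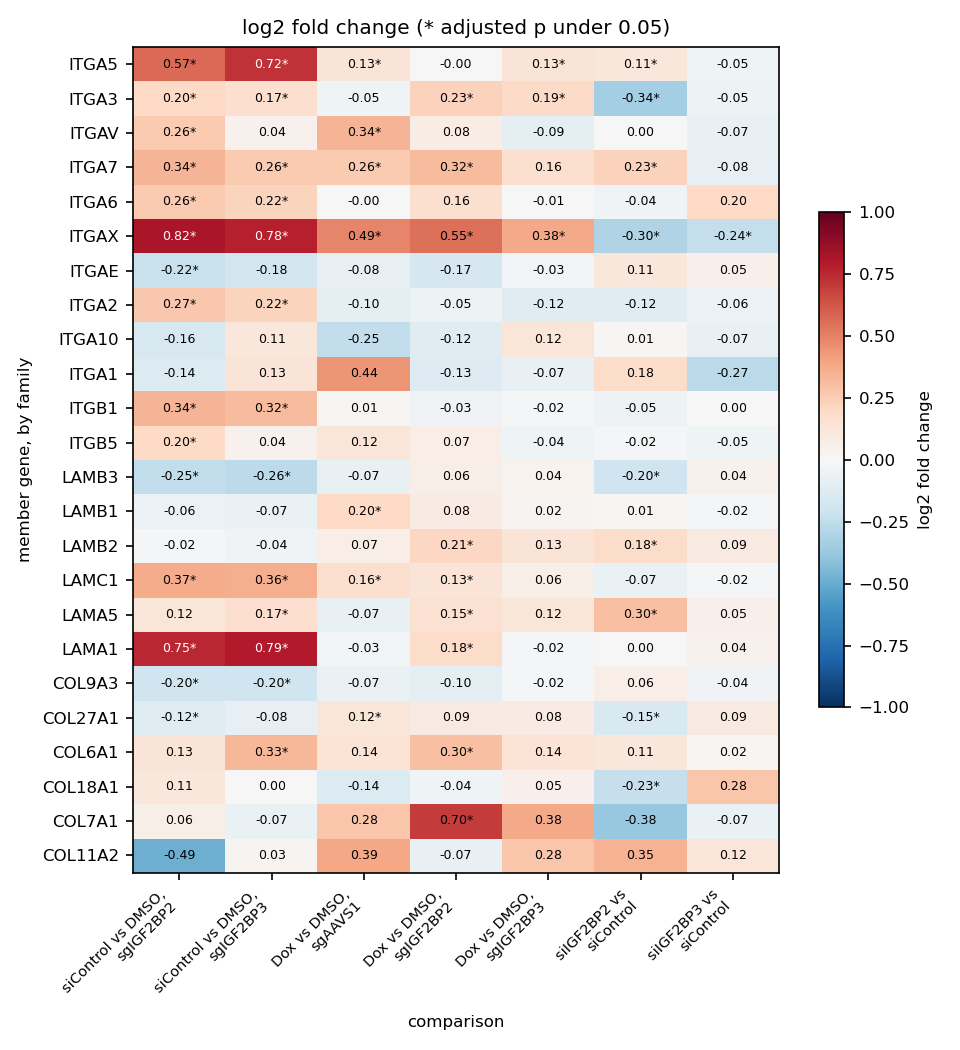
Log2 fold change of members, by family, in the 7 comparisons of treatment with control; red is higher, blue lower, and an asterisk marks an adjusted p under 0.05. The siControl columns hold the most calls, the Dox columns hold rises only, and the siIGF2BP3 column holds 1 call.

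The siRNA pool against IGF2BP2 moved members in both directions, and the pool against IGF2BP3 moved 1. With siIGF2BP2, 9 of 25 members were called against siControl (36.0%), 4 higher and 5 lower, at a background of 36.8% of all genes, 18.4% higher and 18.4% lower. The members' share was thus near that of all genes, and their median log2 fold change was 0.0034 (0.011 for all genes). With siIGF2BP3, 1 member was called (4.00%), a fall, against 2.34% of all genes, 0.936% higher and 1.40% lower. These contrasts share their siControl libraries with the contrasts of siControl against DMSO.

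Among the members called with siIGF2BP2, ITGA3 had the greatest fall. It had 114, 107, 115 and 118 CPM with siControl and 88.1, 99.2, 88.3 and 83.9 with siIGF2BP2. The groups did not overlap, and the log2 fold change was -0.34 ± 0.046 (adjusted p = 7.71e-09). LAMB3 went from 1108, 1127, 1111 and 1162 CPM to 987, 959, 991 and 993, a log2 fold change of -0.20 ± 0.034 (adjusted p = 2.56e-06), so that the siIGF2BP2 libraries held the lowest LAMB3 levels of the series. COL27A1, a fibrillar collagen, went lower by 0.15 on the log2 scale (-0.15 ± 0.038, adjusted p = 9.61e-04), and COL18A1, the source of endostatin, changed by -0.23 ± 0.095 (adjusted p = 0.0482). The COL18A1 call was lost when 1 of 5 libraries was left out (siControl replicate 1, 2 or 4 or siIGF2BP2 replicate 1 or 3), with an adjusted p of up to 0.216.

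Among the rises, LAMA5, the alpha chain of laminin-511 (chr20:62307955-62367312), had 148, 147, 130 and 148 CPM with siControl and 195, 186, 151 and 173 with siIGF2BP2. Every siIGF2BP2 library was above every siControl library, though the lowest, 151, came near the highest, 148. The log2 fold change was 0.30 ± 0.048 (adjusted p = 6.69e-07). LAMB2, its beta partner in laminin-521, rose by 0.18 ± 0.042 (adjusted p = 3.82e-04), ITGA7 by 0.23 ± 0.056 (adjusted p = 6.31e-04) and ITGA5 by 0.11 ± 0.034 (adjusted p = 0.00767). The ITGA5 call was lost without siControl replicate 3 or siIGF2BP2 replicate 2 (adjusted p up to 0.0529). LAMA1 and ITGB1, which rose with siControl, were not called with either pool. LAMA1 changed by 0.0028 (95% interval -0.078 to 0.083) with siIGF2BP2 and by 0.041 (-0.04 to 0.12) with siIGF2BP3, and ITGB1 by -0.053 (-0.13 to 0.024) and 0.00067 (-0.076 to 0.077). The epithelial marker sum was 205 to 244 CPM with siIGF2BP2 and 245 to 249 with siControl. Its part in these changes was not tested.

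ITGAX was the member called with both pools, and the share of all genes called with both was not counted. It had 27.8, 30.3, 31.3 and 29.1 CPM with siControl and 23.1, 24.5, 24.9 and 23.8 with siIGF2BP2 (-0.30 ± 0.067, adjusted p = 2.93e-04). In the other line it had 29.1, 27.9, 31.4 and 27.8 CPM with siControl and 23.9, 24.3, 25.9 and 24.5 with siIGF2BP3 (-0.24 ± 0.068, adjusted p = 0.0449). The groups did not overlap in either line, and the targeting siRNA libraries stayed above the 8 DMSO libraries of these lines (15.1 to 18.5 CPM). The siIGF2BP3 call was lost under 8 of 13 alternatives, 7 of which leave out 1 library each (siControl replicate 1, 2, 3 or 4 or siIGF2BP3 replicate 1, 2 or 4), with an adjusted p of up to 0.199. The 2 effects differed by 0.06 (95% interval -0.13 to 0.25). Across the 7 comparisons of treatment with control, which share control libraries, ITGAX was called in each, 5 times higher and 2 times lower.

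The 2 pools were compared by the difference of their effects. Each pool was used in its own guide line, so pool and line cannot be told apart. The difference was called for 7 members (28.0%, against 18.7% of all genes). COL18A1 (0.51 ± 0.13, adjusted p = 0.00373), ITGA3 (0.29 ± 0.064, adjusted p = 4.83e-04), LAMB3 (0.24 ± 0.048, adjusted p = 1.09e-04) and COL27A1 (0.24 ± 0.054, adjusted p = 5.79e-04) were more positive with siIGF2BP3. ITGA7 (-0.31 ± 0.082, adjusted p = 0.00349), LAMA5 (-0.25 ± 0.068, adjusted p = 0.00542) and ITGA5 (-0.16 ± 0.048, adjusted p = 0.0146) were more negative, the last with an adjusted p of 0.0501 without siControl replicate 3 of sgIGF2BP2 cells. For these 7 genes the siIGF2BP3 effects themselves lay between -0.081 and 0.28 and none was called.

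**Figure D5:**
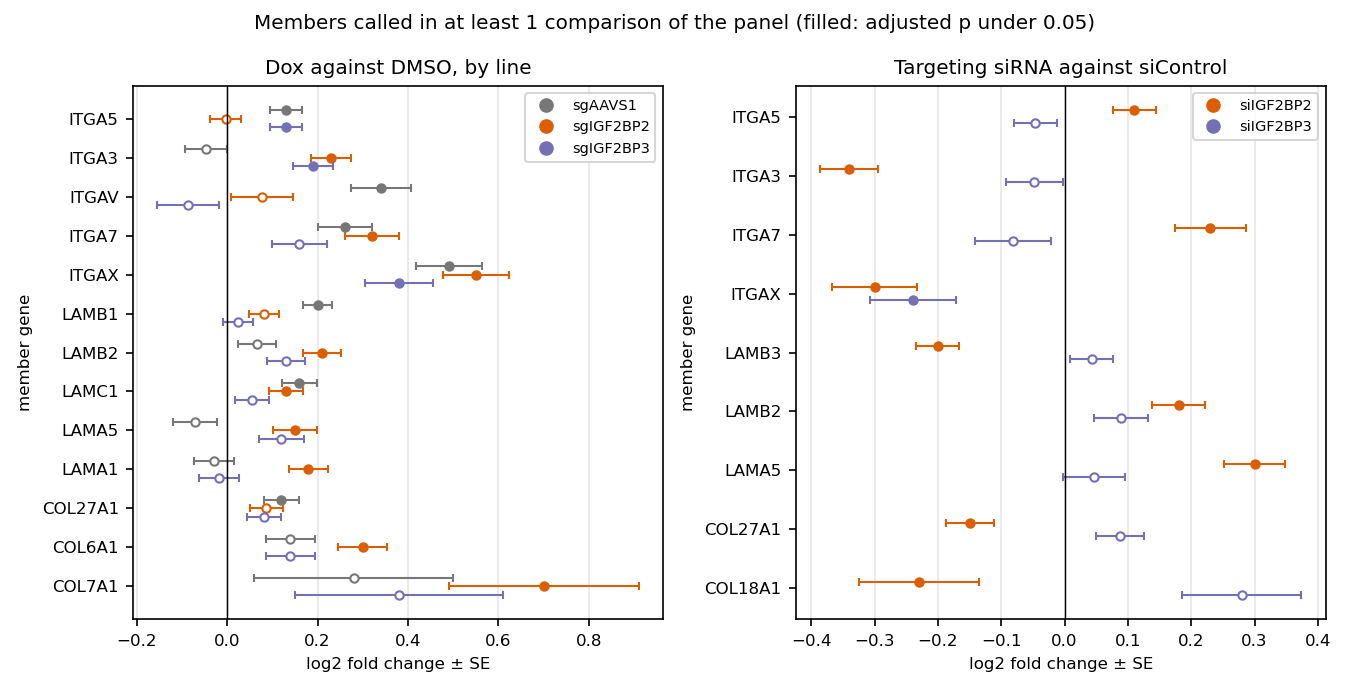
Log2 fold changes with SE for members called in at least 1 comparison of a panel: Dox against DMSO in 3 lines (left) and targeting siRNA against siControl (right); filled points have an adjusted p under 0.05. ITGAX rises with Dox in every line (0.49, 0.55 and 0.38) and is lower with either siRNA (-0.30 and -0.24), and ITGA3 is higher with Dox in sgIGF2BP2 cells (0.23) and lower with siIGF2BP2 (-0.34).

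IGF2BP2 was depleted by Dox and by siRNA in the same line, with no library shared between the siRNA effect and the Dox effect minus that of sgAAVS1. ITGA3 and LAMA5 were called in both. Taken singly, the siRNA effect was called for 36.8% of all genes and the Dox difference for 6.97%. The share of all genes called in both was not counted. LAMA5 was higher in each, by 0.30 with siRNA and by 0.22 with Dox minus sgAAVS1, though the latter call was lost in 10 of the 16 fits that left out 1 library (all but those without sgAAVS1 DMSO replicate 3 or 4, sgAAVS1 Dox replicate 3, sgIGF2BP2 DMSO replicate 2 or sgIGF2BP2 Dox replicate 2 or 4), with an adjusted p of up to 0.101. ITGA3 went in opposite directions, lower by siRNA (-0.34) and higher by Dox minus sgAAVS1 (0.28). For IGF2BP3, no member was called in both, where the siRNA effect was called for 2.34% of all genes and the Dox difference for 7.78%.

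The uninduced lines showed no called difference in these genes. With DMSO, edgeR called 0 members between any 2 of the 3 lines, with 2 at an unadjusted p under 0.05 in each pair, and DESeq2 called 0. Of all genes, 0.0175% were called in each pair. The smallest adjusted p of a member was 0.187.

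With siControl, the genes that work with integrins inside the cell were called in both directions, as were all genes. Of 32 tested genes of the integrin adhesion complex, siControl raised 4 and lowered 4 in sgIGF2BP2 cells and raised 5 and lowered 3 in sgIGF2BP3 cells, with list medians of -0.0055 and 0.0031. The called share was 25% in each line, near the 18.4% and 19.4% of all genes. Of all genes, 10.2% were called higher and 8.16% lower in sgIGF2BP2 cells, and 10.9% and 8.54% in sgIGF2BP3 cells. The focal adhesion protein ZYX fell in both lines (log2 fold changes of -0.23 and -0.17). PTK2, the focal adhesion kinase, rose in sgIGF2BP2 cells (0.21), and ILK, the integrin-linked kinase, in sgIGF2BP3 cells (0.20). With Dox, 3 of the 32 rose and 5 fell in sgAAVS1 cells, 1 and 5 in sgIGF2BP2 cells, and 2 and 0 in sgIGF2BP3 cells. These were 25%, 18.8% and 6.25% of the list, against 15.9%, 20.4% and 2.64% of all genes. With siIGF2BP2, 5 rose and 10 fell (46.9%, against 36.8% of all genes), among them the adaptor PXN (-0.27) and the kindlin FERMT1 (-0.34), and with siIGF2BP3 1 gene was called (3.12%, against 2.34%).

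Of 23 tested genes of collagen synthesis and processing, siControl raised 4 and lowered 1 in sgIGF2BP2 cells and raised 8 and lowered 0 in sgIGF2BP3 cells, with list medians of 0.037 and 0.11. The called shares were 21.7% and 34.8%, against 18.4% and 19.4% of all genes. SERPINH1, the collagen chaperone HSP47, went from 418 to 512 CPM (0.29 ± 0.033, adjusted p = 1.11e-10) and from 417 to 535 (0.36 ± 0.033, adjusted p = 6.29e-14), and COLGALT1, which adds galactose to collagen, rose by 0.14 and 0.22. With Dox, 1 rose and 2 fell in sgAAVS1 cells, 1 and 2 in sgIGF2BP2 cells, and edgeR called 0 in sgIGF2BP3 cells (4 at an unadjusted p under 0.05). The share was 13.0% in each of the first 2 lines, under the 15.9% and 20.4% of all genes. P4HB, a subunit of collagen prolyl 4-hydroxylase and a general protein disulfide isomerase, fell in sgAAVS1 (-0.31) and sgIGF2BP2 cells (-0.13). With siIGF2BP2, 5 rose and 7 fell, 52.2% of the list against 36.8% of all genes. P4HA2, a catalytic subunit of the hydroxylase, went from 60.5 ± 1.36 to 34.8 ± 3.16 CPM (SD, n = 4), a log2 fold change of -0.79 ± 0.052 (adjusted p = 7.70e-21), a greater fall than that of any member. PPIB, a proline isomerase of the endoplasmic reticulum, fell by 0.35 on the log2 scale, and FKBP10, a collagen chaperone, rose (0.22). With siIGF2BP3, edgeR called 0 of the 23 (5 at an unadjusted p under 0.05).

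Of 10 tested genes for other basement membrane and matrix proteins, siControl raised 4 and lowered 1 in each line, with list medians of 0.28 and 0.083. The called share was 50.0% in each, against 18.4% and 19.4% of all genes. HSPG2, the core protein of perlecan, rose by 0.41 ± 0.050 (adjusted p = 1.57e-09) and 0.46 ± 0.050 (adjusted p = 2.02e-11), AGRN (agrin) by 0.28 in each line and FRAS1 by 0.42 and 0.48. With Dox, 1 of 10 rose in sgAAVS1 cells, 5 in sgIGF2BP2 cells and 2 in sgIGF2BP3 cells, and 0 fell. These were 10.0%, 50.0% and 20.0% of the list, against 15.9%, 20.4% and 2.64% of all genes. HSPG2 rose with Dox in sgIGF2BP2 (0.21) and sgIGF2BP3 cells (0.24), and its Dox effect minus that of sgAAVS1 was called in both (0.25 and 0.28). With siIGF2BP2, 5 rose and 0 fell (50.0%, against 36.8%), among them AGRN (0.25), LTBP3 (0.22) and HSPG2 (0.18). With siIGF2BP3, edgeR called 0 (1 at an unadjusted p under 0.05).

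Of 18 tested matrix receptors and integrin partners outside the integrin family, siControl raised 5 and lowered 2 in sgIGF2BP2 cells and raised 5 and lowered 1 in sgIGF2BP3 cells, 38.9% and 33.3% against 18.4% and 19.4% of all genes. BCAM, a receptor for the laminin α5 chain, rose by 0.31 and 0.36, the tetraspanin CD9 by 0.20 and 0.23, and the collagen receptor kinase DDR1 by 0.36 and 0.39. With Dox, 5 rose and 3 fell in sgAAVS1 cells, 8 and 2 in sgIGF2BP2 cells, and 3 and 0 in sgIGF2BP3 cells, or 44.4%, 55.6% and 16.7% against 15.9%, 20.4% and 2.64% of all genes. With siIGF2BP2, 10 rose and 1 fell (61.1%, against 36.8%), among them DAG1 (dystroglycan, 0.25), BCAM (0.29) and the plexin PLXNB2 (0.26), and with siIGF2BP3 edgeR called 0 (4 at an unadjusted p under 0.05). The list medians were 0.029 and 0.059 with siControl and 0.12 with siIGF2BP2. Between the DMSO groups of the lines, edgeR called 0 genes of the 4 lists, with 0 to 3 per list and pair at an unadjusted p under 0.05.

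COL11A2, ITGA1 and ITGA10 were called in none of the 7 comparisons of treatment with control. Their means over the libraries were 1.09, 2.46 and 1.98 CPM, where the SD within a group was as large as 0.5, 1.03 and 0.716 CPM. The SE of their log2 fold changes in these comparisons was 0.20 to 0.31, against 0.039 for ITGB1. COL18A1, COL7A1, ITGAE, ITGB5 and LAMB1 were called in 1 of the 7. Of the 25 members, ITGA5 and ITGA7 were called higher in 5 comparisons and lower in 0, and LAMB3 lower in 3 and higher in 0. The 7 comparisons share control libraries, and such tallies were not made for all genes. The ITGA5 calls with Dox and with siIGF2BP2 were each lost when single libraries were left out. Those of ITGA7 and LAMB3 held under every alternative run.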

How the data were processed

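The authors deposited whole-number counts of reads per gene, not normalized, for 40 libraries. Per the submitters' processing notes, bcl2fastq 2.20.0.422, STAR 2.7.5c and hg38 were used; the counter, its annotation and its strand setting are not given in the sources used here. Symbols and exon lengths came from GENCODE release 29, which named 19847 of the 19962 rows. Counts were fitted with edgeR 4.0.16 (R 4.3.3, limma 3.58.1) on all 40 libraries, with 1 coefficient per group, TMM scaling (factors 0.978 to 1.03), filterByExpr by group (11428 genes with 99.98% of counts), glmQLFit and glmQLFTest, and Benjamini-Hochberg adjustment over all genes in each of 14 comparisons. SE is the log2 fold change divided by the square root of F, and 95% intervals are 1.96 SE wide on each side. The common biological coefficient of variation was 3.79%. Replicates differed by more than sampling noise in all 60 pairs (chi-square per gene 1.49 to 16.6), so none was counted as a duplicate. The fit was tested on simulated data. Members and gene lists were chosen with earlier results of these data known. For each comparison, the text gives full statistics for up to 4 rises and 4 falls, the called members that changed most among those averaging 2 or more in log2 CPM, where the compared libraries did not overlap. The rule adds the 3 members of each family highest per kilobase, members called in all Dox or both siRNA effects, ITGA3 for its place on 17q, members called by siRNA and Dox for 1 target, and up to 3 genes of each list with the smallest adjusted p; further names were chosen after their values were seen. Some genes in the counts are not reported here by name. Alternatives were DESeq2 1.42.0 size factors and Wald test, no filter, only the groups compared, a replicate block, and leaving out each library.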

Additional observations from a re-analysis of the deposited data

Results flagged for a closer look

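In 14 of 240 groups of 4 libraries, 10 for each member reported by name, 1 library stood far from the other 3 by Dixon's criterion, which chance gives in about 1 of 20 groups. In sgIGF2BP2 cells with siIGF2BP2, replicate 3 was low for 4 members: COL27A1 (180 CPM, the others 196 to 197), ITGA2 (20.4, others 24.3 to 25), LAMA1 (139, others 151 to 152) and LAMC1 (156, others 179 to 180). In the same group replicate 1 was low for ITGA10 (1.30 CPM) and replicate 2 for LAMB3 (959). With siControl in that line, replicate 3 was low for LAMA5 (130) and high for ITGA2 (28.1). In sgAAVS1 cells with DMSO, replicate 3 was low for ITGA6 (19.0), replicate 2 for ITGAV (35.6) and replicate 1 for LAMC1 (141). In sgIGF2BP3 cells, replicate 2 was high for ITGA10 with Dox (2.44), and with siIGF2BP3 it was low for ITGA7 (31.8) and high for ITGAV (49.4).

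A tested difference between effects was called for 13 pairs of member and comparison. For the Dox effect minus that of sgAAVS1, these were ITGA3 (0.28), LAMA5 (0.22) and LAMA1 (0.21) in sgIGF2BP2 cells, and ITGA3 (0.24), ITGAV (-0.43) and LAMB1 (-0.17) in sgIGF2BP3 cells. For the siIGF2BP3 effect minus the siIGF2BP2 effect, they were COL18A1 (0.51), ITGA3 (0.29), LAMB3 (0.24), COL27A1 (0.24), ITGA7 (-0.31), LAMA5 (-0.25) and ITGA5 (-0.16).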

How the results depend on the processing

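Of 72 calls of a member in a comparison, 54 held under every alternative run, 18 were lost in at least 1, and 0 changed direction. The count for siIGF2BP3 went from 1 to 0 without the filter on low counts and to 2 with only the groups compared; the cause was not tested. Leaving out 1 library at a time gave 6 to 8 calls for Dox in sgAAVS1, 8 to 11 in sgIGF2BP2, 1 to 4 in sgIGF2BP3, 8 to 9 for siIGF2BP2 and 0 to 1 for siIGF2BP3. For the differences it gave 1 to 6 (sgIGF2BP2 minus sgAAVS1), 3 to 5 (sgIGF2BP3 minus sgAAVS1), 0 to 1 (sgIGF2BP3 minus sgIGF2BP2) and 6 to 8 (siRNA). It gave 13 to 17 and 12 to 14 for siControl in sgIGF2BP2 and sgIGF2BP3, and 0 for DMSO.

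Replicate numbers paired the libraries weakly at most (correlation of deviations -0.09 to 0.097). In 14 of 40 comparisons, 4 in each of 10 pairs of groups, a library correlated best with its own number. All 4 did so for siControl against DMSO in sgIGF2BP2 and for DMSO in sgIGF2BP3 against sgAAVS1. With the replicate block the counts were 7, 9 and 4 for Dox, 9 and 1 for siRNA, 3, 3, 0 and 7 for the differences, 16 and 14 for siControl and 0 for DMSO. Depth was lowest for members such as ITGA1, ITGA10, COL7A1 and COL11A2, at 1.09 to 2.46 CPM, with an SE of 0.20 to 0.31 in the comparisons of treatment with control.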
